A study of Mus musculus with 2 samples.

Results

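Low- and middle-scoring peaks of the histone variant H2AZ inside protein-coding genes numbered 2654 of the 21546 peaks used from the deposited list (12.3%). They were chosen by position and by the deposited score: a peak entered when its midpoint lay inside a protein-coding gene, more than 5 kb from every protein-coding gene end, and its score was under 15. The genes that contain such peaks are called hosts. The peaks came from chromatin immunoprecipitation with sequencing (ChIP-seq) of H2AZ in brain neural progenitor cells of C57BL/6 mice, taken from embryos on embryonic day 13. The series held 1 H2AZ library and 1 input library of the same cells, with no genetic or drug treatment named in the labels. With 1 library per group no value has a replicate check, and the read depth is unknown. The score is the authors' value per peak; its unit and meaning are not stated, and it serves here only for choosing, ranking and describing peaks of 1 list. The peak numbers in the list skip many values by a criterion that is not known, so counts, densities and genes holding none refer to listed peaks only. Positions follow the deposited list, read as the mouse build GRCm38. Brackets hold 95% exact intervals, which cover counting error only and treat neighbouring peaks as independent.

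H2AZ replaces the canonical histone H2A in some nucleosomes. It is put in and taken out by dedicated remodelling complexes, and it is best known from the nucleosomes beside active or poised promoters. It is also found at enhancers, which often lie within introns of long genes. A gene can have further promoters downstream of its outermost start, and such interior promoters often begin shorter isoforms.

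Interior promoters listed by RefSeq lay under a part of these peaks, and they were richer in CG pairs than interior promoters without a peak. The sequences below show the 250 bases before such a start, from RefSeq's promoter table (GRCm38.p6), 5′ to 3′ on the strand of the gene, with every CG pair in capitals. They were chosen after their values were seen, from named hosts and to show a range of CG content, and for Celf2, Fgf13 and Nrxn3 a start of the same gene without an interior peak is set beside the one with a peak.
Dnmt1 interior start under a peak (chr9:20952624-20952873, minus strand): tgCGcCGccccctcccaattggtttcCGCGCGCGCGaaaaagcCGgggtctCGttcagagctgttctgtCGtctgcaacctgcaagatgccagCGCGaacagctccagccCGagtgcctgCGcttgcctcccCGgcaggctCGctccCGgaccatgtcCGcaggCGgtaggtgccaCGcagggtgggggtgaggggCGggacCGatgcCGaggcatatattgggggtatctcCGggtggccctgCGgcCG
Ptch1 interior start under a peak (chr13:63565736-63565985, minus strand): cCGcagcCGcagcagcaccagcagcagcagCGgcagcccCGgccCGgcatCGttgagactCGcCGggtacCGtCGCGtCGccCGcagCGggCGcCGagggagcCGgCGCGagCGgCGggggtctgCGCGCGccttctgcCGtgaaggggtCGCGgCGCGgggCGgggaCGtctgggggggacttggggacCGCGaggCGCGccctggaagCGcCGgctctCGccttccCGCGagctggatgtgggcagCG
Shroom3 interior start under a peak (chr5:92809132-92809381, plus strand): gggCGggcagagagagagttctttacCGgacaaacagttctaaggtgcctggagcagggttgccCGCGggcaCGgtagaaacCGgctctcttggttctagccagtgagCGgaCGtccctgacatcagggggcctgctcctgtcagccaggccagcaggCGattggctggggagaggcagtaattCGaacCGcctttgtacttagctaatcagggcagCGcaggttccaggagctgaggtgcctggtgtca
Dlg2 interior start under a peak (chr7:92234720-92234969, plus strand): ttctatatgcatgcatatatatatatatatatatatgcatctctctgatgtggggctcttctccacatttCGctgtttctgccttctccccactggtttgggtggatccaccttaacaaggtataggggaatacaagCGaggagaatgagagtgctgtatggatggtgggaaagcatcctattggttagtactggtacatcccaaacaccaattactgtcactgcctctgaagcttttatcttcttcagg
Celf2 interior start under a peak (chr2:6872036-6872285, minus strand): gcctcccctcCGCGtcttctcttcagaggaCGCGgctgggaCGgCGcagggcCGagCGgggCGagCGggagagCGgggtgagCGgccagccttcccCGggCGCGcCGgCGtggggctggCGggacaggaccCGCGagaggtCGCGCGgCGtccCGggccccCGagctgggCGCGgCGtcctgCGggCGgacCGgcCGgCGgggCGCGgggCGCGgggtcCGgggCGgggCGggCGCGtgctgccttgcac
Celf2 interior start without a peak (chr2:6721663-6721912, minus strand): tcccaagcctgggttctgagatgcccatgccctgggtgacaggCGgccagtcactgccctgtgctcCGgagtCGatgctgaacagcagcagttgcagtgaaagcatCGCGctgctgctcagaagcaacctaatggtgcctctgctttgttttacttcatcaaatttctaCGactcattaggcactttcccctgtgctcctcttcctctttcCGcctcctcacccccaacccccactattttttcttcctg
Fgf13 interior start under a peak (chrX:59134437-59134686, minus strand): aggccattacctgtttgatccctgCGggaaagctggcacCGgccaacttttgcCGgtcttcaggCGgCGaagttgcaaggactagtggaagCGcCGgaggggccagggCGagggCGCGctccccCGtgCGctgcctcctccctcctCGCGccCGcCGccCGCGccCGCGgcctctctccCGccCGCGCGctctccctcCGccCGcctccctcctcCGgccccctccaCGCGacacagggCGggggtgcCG
Fgf13 interior start without a peak (chrX:59166089-59166338, minus strand): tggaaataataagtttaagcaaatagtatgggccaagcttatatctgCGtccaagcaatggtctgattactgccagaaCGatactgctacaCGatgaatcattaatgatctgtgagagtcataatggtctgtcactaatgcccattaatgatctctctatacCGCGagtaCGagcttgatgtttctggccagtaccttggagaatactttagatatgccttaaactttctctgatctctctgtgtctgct
Nrxn3 interior start under a peak (chr12:89812233-89812482, plus strand): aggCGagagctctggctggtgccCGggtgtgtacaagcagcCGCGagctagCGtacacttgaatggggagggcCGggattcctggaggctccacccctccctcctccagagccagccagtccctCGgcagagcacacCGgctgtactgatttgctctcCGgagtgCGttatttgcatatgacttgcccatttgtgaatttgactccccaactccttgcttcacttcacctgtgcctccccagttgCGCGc
Nrxn3 interior start without a peak (chr12:88953140-88953389, plus strand): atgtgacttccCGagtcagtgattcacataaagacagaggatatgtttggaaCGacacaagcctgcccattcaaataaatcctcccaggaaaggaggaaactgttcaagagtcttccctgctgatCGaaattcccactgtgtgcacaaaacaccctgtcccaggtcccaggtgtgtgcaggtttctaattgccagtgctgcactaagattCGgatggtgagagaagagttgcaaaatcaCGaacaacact

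The Dnmt1 start, of the maintenance DNA methyltransferase gene, had 26 CG pairs in these 250 bases and lay 7.27 kb from the outer 5′ end, under a peak of score 14.91 (chr9:20951557-20953940). A further listed Dnmt1 start under the same peak had 7. The Ptch1 start, of the Hedgehog receptor gene, had 41 CG pairs and lay under a peak of score 12.83 (chr13:63562822-63567103). Both starts lay within 8 kb of the outer 5′ end, and Ptch1 had a boundary peak of score 17.0 as well, whereas Dnmt1 had none. Shroom3, whose product shapes the apical side of epithelial cells, had 12 CG pairs at a start 125.9 kb into the gene, under a peak of score 7.46. Dlg2, a postsynaptic scaffold gene, had 2 at a start under a peak of score 7.73, so low CG content did not preclude a peak.

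In the splicing regulator gene Celf2 the start under a peak of score 9.25 had 43 CG pairs, and the start without a peak had 7. Fgf13 encodes an intracellular FGF-homologous factor. It had 31 CG pairs at the start under a peak of score 10.44 and 33 at another interior start, under a peak of score 12.53, against 6 at the start without a peak. Nrxn3, a presynaptic adhesion gene, had 12 CG pairs at the start under a peak of score 13.72, which lies 1089.8 kb from the outer 5′ end. Its interior starts without a peak had 5 and 2. In these 3 genes the start with the higher CG count was the one under a peak.

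The same order held across the listed interior starts of coding genes. Of 2151 such starts, 480 lay under a low- or middle-scoring interior peak (22.3%), 369 under an interior peak of score 15 or more, and 1302 under neither. In the full 300-base window, which runs 250 bases before to 50 after the start, the median number of CG pairs was 11 (quartiles 6 and 19) under a low or middle peak. It was 4 (2 and 7) at starts without an interior peak and 22 (13 and 32) under the higher-scoring peaks. The GC box, searched as GGGCGG or CCGCCC, was present in 46.7% of windows under a low or middle peak, 18.1% of those without a peak, 67.8% of those under higher-scoring peaks, and 35.7% of all 32851 windows of the table. In 89 genes 1 interior start lay under a low or middle peak and another had none. The highest CG count was larger at a start with the peak in 70 of them, equal in 4 and smaller in 15. A match to these letters describes the window only.

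Most low- and middle-scoring interior peaks lay away from any listed start. Of the 2564 on chromosomes with listed starts, 489 overlapped an interior start window by at least 1 bp (19.1%, 17.6 to 20.6%), and 413 overlapped one of the host itself (16.1%). Of the 537 interior peaks of score 15 or more on these chromosomes, 321 did (59.8%, 55.5 to 64.0%). The share rose along the score, from 8.29% (5.78 to 11.4%) of peaks under 6 through 18.2% at 8 to 10 and 42.2% (36.5 to 48.1%) at 12 to 15 to 74.6% (62.5 to 84.5%) at 25 or more. Across the limit of 15 it passed from 42.2 to 55.0% (49.3 to 60.6%), a step of about the size of those just below, from 18.2 to 30.6 and from 30.6 to 42.2%. The table of starts is not complete: it gave a strand for 77.1% of hosts and none for chromosome 18, which held 90 of the peaks, and a start it does not list is counted here as none.

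**Figure D1:**
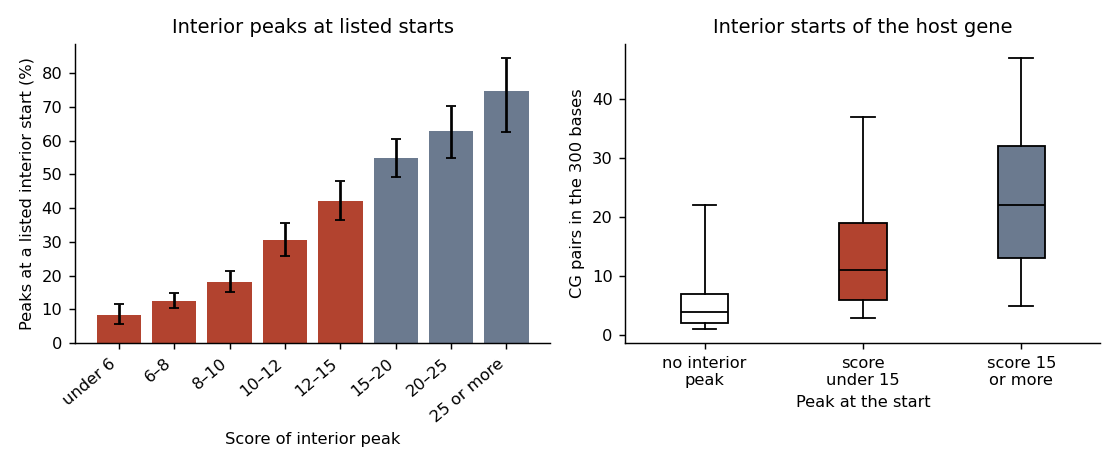
Left, share of interior peaks that overlap a listed interior start, by score (red under 15, grey 15 or more; bars, 95% exact intervals). Right, CG pairs in the 300-base window of interior starts of coding genes (box, quartiles and median; whiskers, percentiles 5 and 95): the medians are 4, 11 and 22. In this panel the host gene is the gene that the start belongs to, whether or not it holds a low or middle peak.

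In score and width these peaks were close to low-scoring peaks between genes. Their median score was 7.95 (quartiles 6.56 and 10.05, range 3.75 to 14.97), and 414 scored under 6 and 924 from 6 to under 8. Peaks between genes, over 5 kb from any end and under 15, had a median score of 7.76, and peaks within 5 kb of a gene end 16.01. The median widths in the same order were 1592, 1571 and 2136 bp. Peaks at a listed start were wider and higher (1848 bp, score 9.84) than the rest (1548 bp, score 7.73). Because the score chose the peaks, and width goes with score, these values are a description. The limit fell in a continuous range. Just inside it lay 1 peak of 14.97 and 15 peaks of 14.91, among them those in Arhgef4, Gli2, Cfap221, Atp2b4, Srrm3 and Dnmt1. Just outside it lay peaks in Msrb3 and Kctd7 (15.01 each) and Exoc3l2 (15.06).

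Some of these peaks were broad. Width reached 3 kb in 57, and the widest lay in Zmynd8, a chromatin reader gene (5990 bp, score 10.74, chr2:165883775-165889764). It was followed by peaks in the adhesion gene Tenm4 (5504 bp, 12.41, chr7:96209173-96214676), Pigz (5017 bp, 11.22), the cartilage collagen gene Col2a1 (4315 bp, 9.79) and Ptch1 (4282 bp, 12.83). Close neighbours were also found. Of 885 pairs of neighbouring low or middle peaks in 1 host, 34 were less than 1 kb apart and the median gap was 26.1 kb (quartiles 9.07 and 62.9 kb). The closest in named genes lay 6 bp apart in the ion channel gene Asic2, 32 bp apart in Ptch1, 39 bp apart in the transcription factor gene Sox6 and 42 bp apart in Maml3. Such pairs may be 1 region called in parts, which was not tested.

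Hosts were long genes. The 2654 peaks lay in 1816 hosts, with 2716 pairs of peak and host because 18 peaks lay in 2 genes and 6 in more. Only genes over 10 kb can hold a point more than 5 kb from both ends, and 13916 of 21774 protein-coding genes qualified. Of these 13916, 1816 were hosts (13%), and 511 had 2 or more such peaks (3.67%). The median host was 90.1 kb long (quartiles 41.6 and 195.0 kb), against 29.5 kb (17.4 and 59.6 kb) for other genes over 10 kb. The share of genes that were hosts rose from 3.51% (3.03 to 4.04%) at 10 to 25 kb, through 16.7% at 50 to 100 kb, to 52.0% (46.6 to 57.3%) over 400 kb.

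Density ran the opposite way. Counted over gene interiors, which is the length less 5 kb at each end, it was 0.576 peaks per 100 kb (0.500 to 0.661) in genes of 10 to 25 kb, 0.374 (0.344 to 0.407) at 50 to 100 kb and 0.168 (0.152 to 0.185) over 400 kb. The intervals of the shortest and longest class are far apart. Over all gene interiors beyond 5 kb of any end, 854.3 Mb in total, the density was 0.311 per 100 kb (0.299 to 0.323). Between genes, in 1476 Mb, it was 0.362 (0.353 to 0.372) for peaks under the same score. Interior peaks of score 15 or more were rarer (0.0659 per 100 kb), but their density was above that of such peaks between genes (0.0260).

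**Figure D2:**
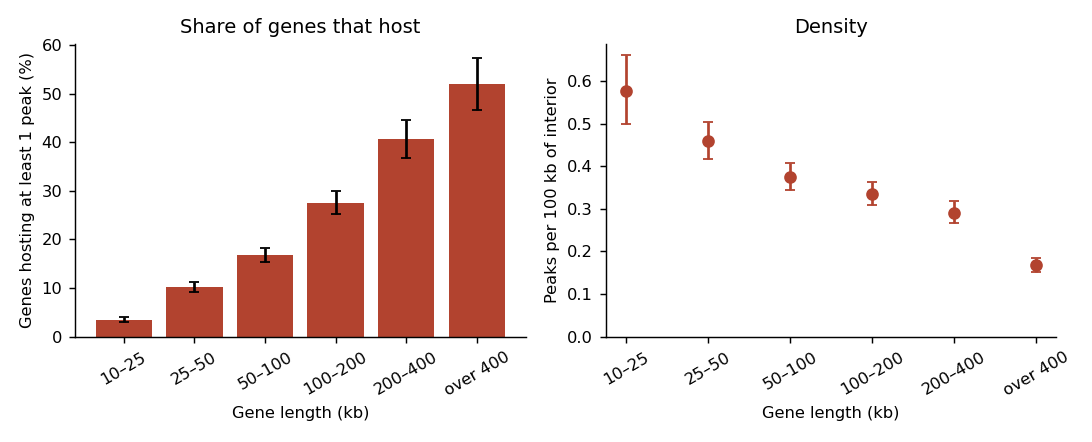
Left, share of protein-coding genes over 10 kb that host at least 1 interior peak of score under 15, by gene length. Right, such peaks per 100 kb of interior; bars are 95% exact intervals. The share rises from 3.51 to 52.0% while the density falls from 0.576 to 0.168.

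Genes with a listed interior start held more of these peaks per length. The density was 0.501 per 100 kb (0.471 to 0.532) in the 1593 genes over 10 kb with an interior start of their own and 0.220 (0.207 to 0.234) in the 9485 with listed starts but none inside. The former are longer, with a median of 68.2 against 29.3 kb, although density falls with length. With peaks at listed starts left out, the densities were 0.290 (0.267 to 0.314) and 0.213 (0.200 to 0.226). Along the gene the differences in density were modest. Of 2084 pairs of peak and host with a known strand, 52.9% (50.8 to 55.1%) lay nearer the 5′ than the 3′ end. Density was 0.281, 0.342 (0.314 to 0.373), 0.318, 0.296 and 0.277 (0.247 to 0.310) per 100 kb in successive stretches of 20% of gene length from the 5′ end. The intervals of the second and last stretch do not overlap. The outer stretches lose the 5 kb at each gene end, which takes out more of short genes, where density is higher. The median distance from the nearest coding gene end was 25.6 kb, and 382 peaks lay more than 100 kb from one.

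Most hosts held a single peak. That was so in 1305 hosts (71.9%, 69.7 to 73.9%), while 296 held 2, 121 held 3 and 94 held 4 or more. The median length rose with the number, from 70.8 kb at 1 peak through 133.6 and 163.5 kb at 2 and 3 to 280.9 kb at 4 or more. The median per 100 kb stayed between 1.62 and 1.95 over these classes, a value that is high because hosts are chosen for holding a peak.

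The named hosts with the most peaks were long, from 91.3 to 1302 kb, and of mixed function. Maml3, which encodes a coactivator of Notch-dependent transcription, held 10 (2.45 per 100 kb; the gene spans 418.0 kb on chromosome 3). Their scores were 5.81, 7.23, 11.04, 8.00, 5.07, 6.86, 6.97, 8.28, 6.38 and 9.25, in order from 35.3 to 403.8 kb from the 5′ end, so they were spread over nearly the whole gene. The peak at its 5′ end scored 16.7, above each of them, as the score limit of 15 on interior peaks requires. Shroom3 (282.3 kb, chromosome 5) held 9 (3.30 per 100 kb) with scores of 10.65, 9.25, 7.46, 9.84, 6.23, 7.65, 8.65, 6.86 and 8.95 from 15.5 to 241.8 kb. It also held 1 interior peak of score 16.41, at a listed start, and a peak of the same score at its 5′ end.

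Rad51b, a gene of homologous recombination, held 9 (1.66 per 100 kb; 551.0 kb, chromosome 12). Of these, 8 lay between 383.4 and 542.6 kb, toward its 3′ end, with scores of 5.97, 5.37, 12.95, 5.80, 6.86, 14.32, 7.46 and 8.95. The remaining peak lay at 158.5 kb (6.56). Pakap, a gene of protein kinase A anchoring, held 8 (1.77 per 100 kb), all between 173.0 and 411.7 kb, with scores from 6.13 to 14.02. Zbtb20, a zinc finger transcription factor gene, held 8 (1.07 per 100 kb) with scores between 5.07 and 8.00. Their 5′ ends had peaks of 19.99, 22.07 and 14.62, each above the low or middle interior peaks of its gene. For Rad51b and Pakap the score limit of 15 on interior peaks fixes that order. Pakap also held 1 interior peak above the limit (18.07).

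**Figure D3:**
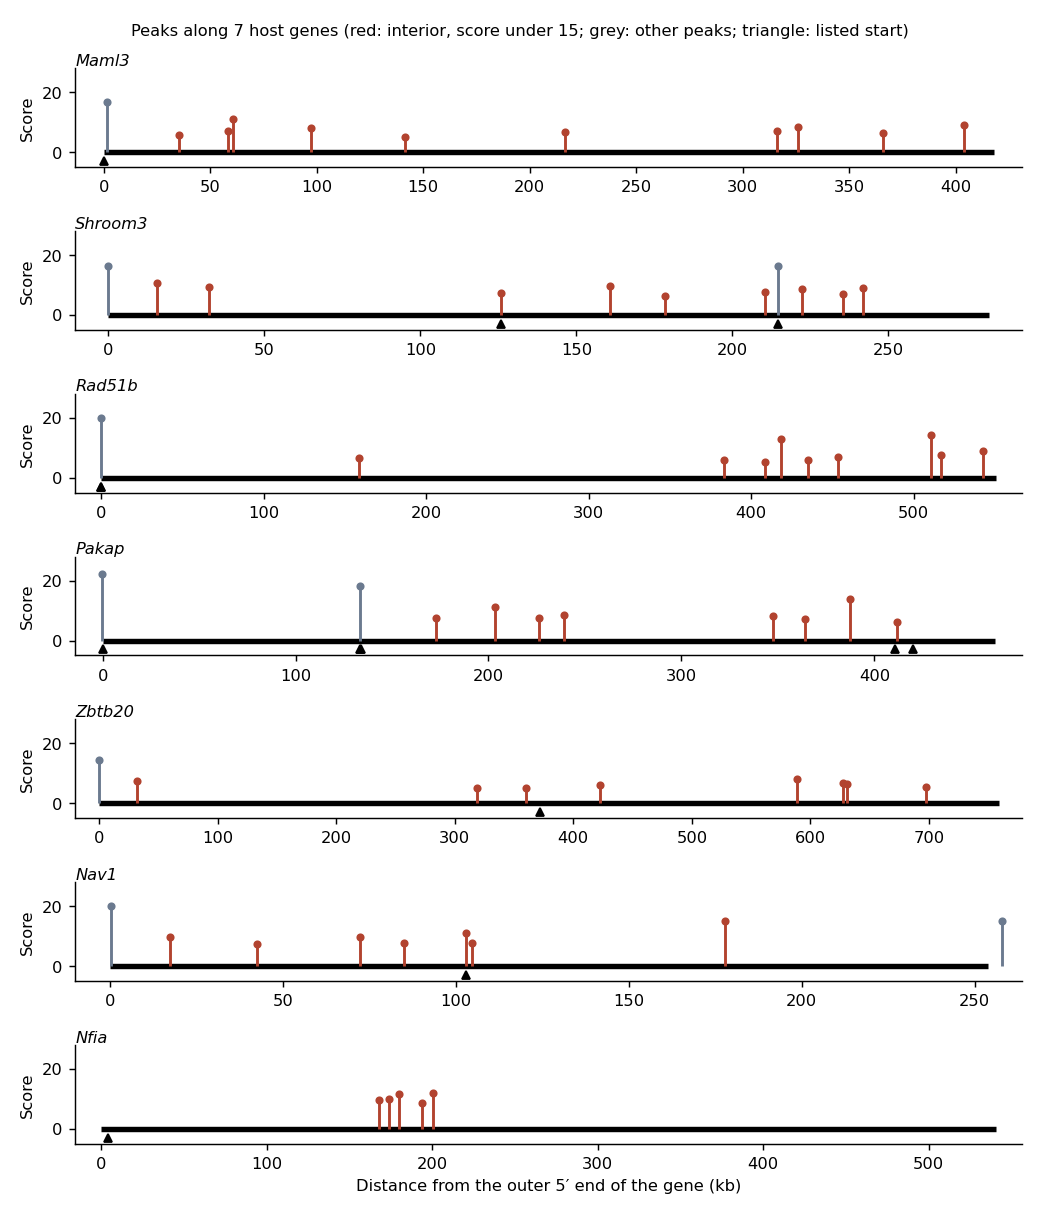
Peaks along 7 hosts by distance from the outer 5′ end (kb; x axis) and score (y axis); red, interior peaks of score under 15; grey, other peaks within 5 kb of the gene or inside it; triangles, starts listed by RefSeq. The 10 red peaks of Maml3 are spread along the gene, those of Rad51b gather toward the 3′ end and the 5 of Nfia lie close together.

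With 7 peaks each followed Wdr95 (5.96 per 100 kb), the neuron navigator gene Nav1 (2.87), Gse1 (2.04), Arhgap26, a GTPase-activating protein gene (0.915), and Dlgap1, a postsynaptic scaffold gene (0.831). Of the Arhgap26 peaks 3 lay also inside the growth factor gene Fgf1, which overlaps it. With 6 came Ccdc192 (3.20), Filip1 (3.03), Pebp4 (2.86), Ppm1h (2.32), the myosin genes Myo1d (2.08) and Myo3b (1.58), the cation channel gene Trpm3 (0.708) and the phosphodiesterase gene Pde4d (0.464). The cyclin gene Ccnd3 held 5 (5.91). In it, 4 peaks of 12.37, 11.63, 9.25 and 10.44 lay within 22.5 kb of the 5′ end and 1 of 14.02 lay at 88.9 kb, over a listed start with 19 CG pairs in its 250 bases. 

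Per 100 kb the order was different and led by short genes. Among hosts with at least 3 peaks, high densities were found in the activin subunit gene Inhba (17.3 per 100 kb), the guanine nucleotide exchange factor gene Arhgef15 (16.6), Ltbp4, which encodes a TGF-beta binding protein (16.3), BC034090 (12.9), the leukocyte gene Lsp1 (11.3), the ciliary gene Ccdc40 (11.2), Dupd1 (10.7), the phosphodiesterase gene Pde4a (10.7) and Npl (8.17). Of these hosts Pde4a was the longest, at 47.5 kb. A boundary peak was present at Ltbp4 (5.37), BC034090 (13.63), Lsp1 (9.25), Ccdc40 (15.21), Pde4a (18.2) and Npl (15.21). In Pde4a the scores were 10.14, 14.32, 14.32 and 14.62, in Inhba 11.93, 8.05 and 5.97. Over all hosts the median density was 1.67 per 100 kb (quartiles 0.779 and 3.78), a level set by 1 peak in many of them.

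Counting boundary peaks of any score and pooling all lengths over 10 kb, hosts had one about as often as other long genes. Hosts were longer than the others, and within length classes the order of the shares varied. A boundary peak overlaps the 1 kb on either side of a gene end by at least 1 bp, and 64.8% of all genes over 10 kb and 55.4% of all protein-coding genes had one. Among hosts 1168 of 1816 did (64.3%, 62.1 to 66.5%), and among other genes over 10 kb 7844 of 12100 (64.8%, 64.0 to 65.7%). The intervals overlap, and no test was made. The order of the shares turned with windows of 2 kb (67.4 against 66.7%) and 5 kb (74.6 against 69.8%), the latter wide enough to reach the edges of some interior peaks. Counting only boundary peaks at or above the median score of all peaks, 11.93, the shares were 49.6% of hosts and 53.7% of other long genes. By length the shares were 65.6% of hosts against 61.2% of others at 10 to 25 kb, and 63.3% against 66.3% at 25 to 50 kb. They were 62.1% (57.3 to 66.8%) against 68.6% (66.6 to 70.6%) at 50 to 100 kb, and 62.8% (57.8 to 67.6%) against 70.1% (67.2 to 72.8%) at 100 to 200 kb. At 200 to 400 kb they were 67.2% against 66.0%, and over 400 kb 69.4% (62.2 to 76.0%) against 65.1% (57.4 to 72.2%). Hosts thus had the lower share in each class from 25 to 200 kb and the higher share in the shorter and longer classes. In each of the 6 length classes the intervals overlapped, at 50 to 200 kb only narrowly, which does not show that the shares are equal.

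**Figure D4:**
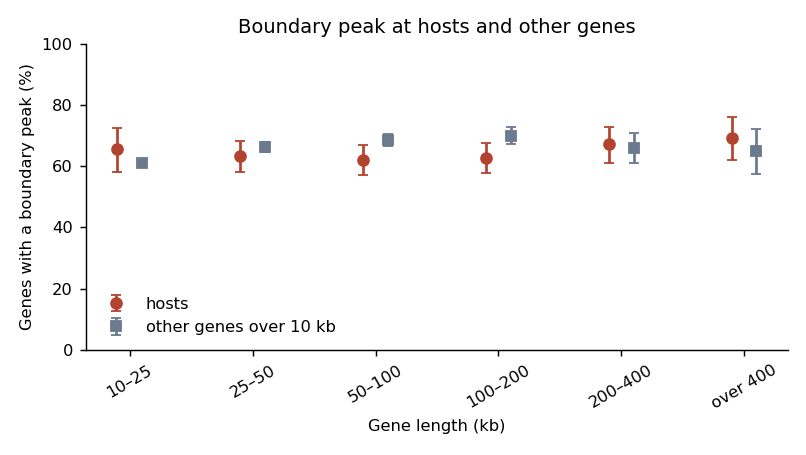
Share of hosts (red circles) and of other protein-coding genes over 10 kb (grey squares) with a boundary peak, by gene length; bars are 95% exact intervals. Both lie between 61.2 and 70.1% in every class, and the intervals overlap throughout.

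The boundary peak of a host was mostly at the 5′ end and mostly higher than its interior peaks. Where a strand was known, 62.6% of hosts had a peak at the outer 5′ end and 7.57% at the 3′ end (6.24 to 9.08%), against 63.3 and 5.35% of other long genes. Of the 1168 hosts with a boundary peak, that peak outscored every low or middle interior peak in 1007 (86.2%, 84.1 to 88.1%). The score limit on interior peaks favours that order. The median boundary score was 16.69 in hosts and 17.66 in other long genes. The share with a boundary peak was 64.0% in hosts with 1 peak, 63.2% with 2, 62.8% with 3 and 74.5% (64.4 to 82.9%) with 4 or more. Genes with an interior peak of score 15 or more had a boundary peak in 276 of 538 cases (51.3%, 47.0 to 55.6%), an interval below that of the hosts, with which they share 185 genes. Hosts with a peak at their own listed interior start had one in 60.9% (55.9 to 65.8%), other hosts with a listed start in 67.0% (64.0 to 69.9%).

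Hosts without a boundary peak numbered 648, and 572 of these also had no interior peak of score 15 or more. Peaks between 1 and 5 kb from a gene end count in neither class. Nfia, a transcription factor gene of glial and neuronal development, was 1 of them: its 5 peaks of 9.55, 9.84, 11.78, 8.65 and 11.93 lay between 168.0 and 200.4 kb from the outer 5′ end. Wdr95, Filip1, Pebp4, Ppm1h and Ccdc192 were further such hosts. In Filip1, 3 of the 6 peaks (11.04, 12.53 and 5.97) lay over listed interior starts. Pde4d had no boundary peak, but 2 interior peaks of 15 or more.

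The share of chromatin regulator genes that were hosts was near that of all genes over 10 kb and below that of genes of like length. The methyltransferase gene Setd2, whose product trimethylates lysine 36 of histone H3 and which the series' title names, held none (boundary peak 22.07), and the interior peak of Sgo2a, a cohesin protector gene, was above the limit (37.9). Of 62 chromatin regulator genes over 10 kb, 8 were hosts (12.9%, 5.74 to 23.9%, beside the 13% of all genes over 10 kb), with 9 peaks or 0.136 per 100 kb (0.0621 to 0.258). Of all genes of 50 to 100 kb, where the median gene of the list lies, 16.7% were hosts, a value inside the interval of the list. The density of the list, of few peaks, lies below the 0.374 (0.344 to 0.407) of that class. It also lies below the 0.310 (0.298 to 0.321) of all genes over 10 kb. The hosts were led by the remodeller gene Smarca2 with 2 (8.05 and 9.25), Dnmt1, Prdm2 (13.98) and Arid1b (11.04). The remodeller genes Arid1a and Arid2 and the methyltransferase gene Ash1l held none.

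Synaptic, channel and guidance genes are long, and their shares of hosts were close to those of all genes of like length, while their densities were below that of all genes over 10 kb. Density falls with length, and whether these lists differ in it from genes of like length was not tested. In the list of synaptic and neuronal adhesion genes 25 of 49 were hosts (51.0%, 36.3 to 65.6%), yet at 0.104 peaks per 100 kb (0.0765 to 0.138), below all genes over 10 kb; the median gene of this list spanned 902587 bp, and of all genes over 400 kb 52.0% were hosts, at 0.168 per 100 kb. Dlg2 (6.86, 11.32, 8.35 and 7.73) and Tenm2 (5.97, 7.27, 7.46 and 5.07) held 4 each, and Nrxn3 (5.67, 13.72 and 5.80) and Ntm (11.48, 6.86 and 6.56) 3 each. Adgrl2, Adgrl3 and Cadm1 held none. Genes of ion channels and receptors were hosts in 21 of 53 cases (39.6%), beside 40.6% of all genes of 200 to 400 kb, the class of the median gene of the list. Their density was 0.159 per 100 kb (0.111 to 0.221), beside 0.291 for all genes of that class and 0.168 for those over 400 kb. A list's density pools peaks over total length, so its longest genes weigh most. The hosts of this list were led by the calcium channel genes Cacna1e and Cacna1a (4 each), the potassium channel gene Kcnq1 (3) and the sodium channel gene Scn8a (2). Cacna2d1, Cacna2d3 and Cacnb2 held none. Axon guidance genes were hosts in 15 of 53 cases (28.3%), beside 27.5% of all genes of 100 to 200 kb, where the median gene of this list lies. Their density was 0.153 per 100 kb (0.0946 to 0.234), beside 0.335 for all genes of that class, 0.291 at 200 to 400 kb and 0.168 over 400 kb. Sema3e (4), Slit3 (3), Robo2 (2) and Sema3a (1, score 12.83) came first, and Crmp1, Dcc and Draxin held none.

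Neuronal differentiation genes had a density close to that of all genes. Of 33, 14 were hosts (42.4%, 25.5 to 60.8%), at 0.338 per 100 kb (0.231 to 0.477). Of all genes over 10 kb 13% were hosts. Of all genes of 100 to 200 kb, where the median gene of the list lies, 27.5% were (25.2 to 29.9%). The ankyrin gene Ank3 and the RNA-binding protein genes Celf2 and Celf4 held 5 each, and Elavl2, a neuronal RNA-binding protein gene, 3 (11.33, 13.72 and 7.16). In Elavl2 the peaks of 11.33 and 13.72 lay over listed starts with 14 to 21 CG pairs in 250 bases. Bsn, Camk2b and Dclk2 held none. Brain transcription factor genes, whose median gene lies in the same length class, were hosts in 16 of 55 cases (29.1%, 17.6 to 42.9%, 0.253 per 100 kb). They were led by Zbtb20, Nfia, Tshz2 (3) and Ebf3 (2, of 8.05 and 14.32). Auts2, Bcl11a and Cux1 held none. In the short radial glia and progenitor list 3 of 14 were hosts (21.4%, 4.66 to 50.8%), beside 16.7% of all genes of 50 to 100 kb, the class of its median gene. These hosts were Lhx2 (8.35 and 5.26), Pax6 (8.95) and Gli3 (5.07), each with a boundary peak (8.05, 7.16 and 13.12), as had 9 of the other 11. Cdh2, Ednrb and Hmga2 held none.

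Hosts of the signalling lists held mostly 1 to 3 of these peaks, Maml3 apart. For comparison, 13% of all genes over 10 kb were hosts, 10.1% of those of 25 to 50 kb and 16.7% of those of 50 to 100 kb. The median gene of the Notch list lies in the shorter of these classes, and those of the other signalling lists in the longer. The Notch list had 5 hosts of 25 (20%, 6.83 to 40.7%), at 0.688 per 100 kb (0.376 to 1.15), but 10 of its 14 peaks lay in Maml3, and without that gene the density was 0.246. The others were Heyl (13.72), Psen2 (12.07), Maml2 (7.18) and Notch2 (5.97), while Adam10, Adam17 and Dner held none. In the Hedgehog list 4 of 16 were hosts (25%, 7.27 to 52.4%; 2 with a distance limit of 10 kb): the effector genes Gli2 (7.79 and 14.91) and Gli3, Ptch1 (12.83 and 6.81) and Kif7 (9.03). All 4 also had a boundary peak, of 13.12, 13.12, 17.0 and 15.51. Boc, Cdon and Disp1 held none. Wnt genes were hosts in 8 of 40 cases (20%, 0.414 per 100 kb), with Tcf7l1 (3) ahead of Wnt5b, Prickle2 and Ror2 (2 each), and Axin1 (1 above the score limit, 21.77), Axin2 and Ctnnb1 without. BMP and TGF-beta genes were hosts in 4 of 32 cases, or 12.5% (Bmpr1b 3, Smad6 2, Bmp7 and Bmper 1 each, and Acvr1, Acvr2a and Acvr2b without). In the list of FGF genes, which does not include Fgf1, 3 of 20 were hosts, or 15% (Fgf13 2, Fgf14 and Fgf18 1 each), with Etv1, Etv4 and Etv5 without.

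Lists of cell shape, cell cycle and RNA processing completed the set. By length, 40.6% of all genes of 200 to 400 kb, 10.1% of those of 25 to 50 kb and 16.7% of those of 50 to 100 kb were hosts. The median genes of these lists lie in those classes, in the same order. Of 54 genes of polarity, junctions and cell shape 18 were hosts (33.3%, 21.1 to 47.5%), at 0.337 per 100 kb, led by Shroom3, Pakap, Arhgap26 and Ank2 (5). Shroom3 and Pakap were placed in that list with their peak numbers known. Afdn, Cdh11 and Cdh2 held none. Of 35 cell cycle and replication genes 5 were hosts (14.3%), at 0.378 per 100 kb, or 0.202 without Rad51b, which had likewise been known. After Rad51b and Ccnd3 came Fhit (8.95) and Cit (7.76), and Anln, Aurka and Bub1 held none. Of 35 genes of RNA processing and translation 4 were hosts (11.4%): Msi1, an RNA-binding protein gene of neural stem cells (11.33, 13.72 and 5.37), the splicing factor genes Mbnl2 (7.76 and 14.81) and Mbnl1 (10.14), and Srrm2 (13.72). Ago2, Ago3 and Cnot1 held none. Without Msi1 their density moved from 0.267 to 0.157.

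**Figure D5:**
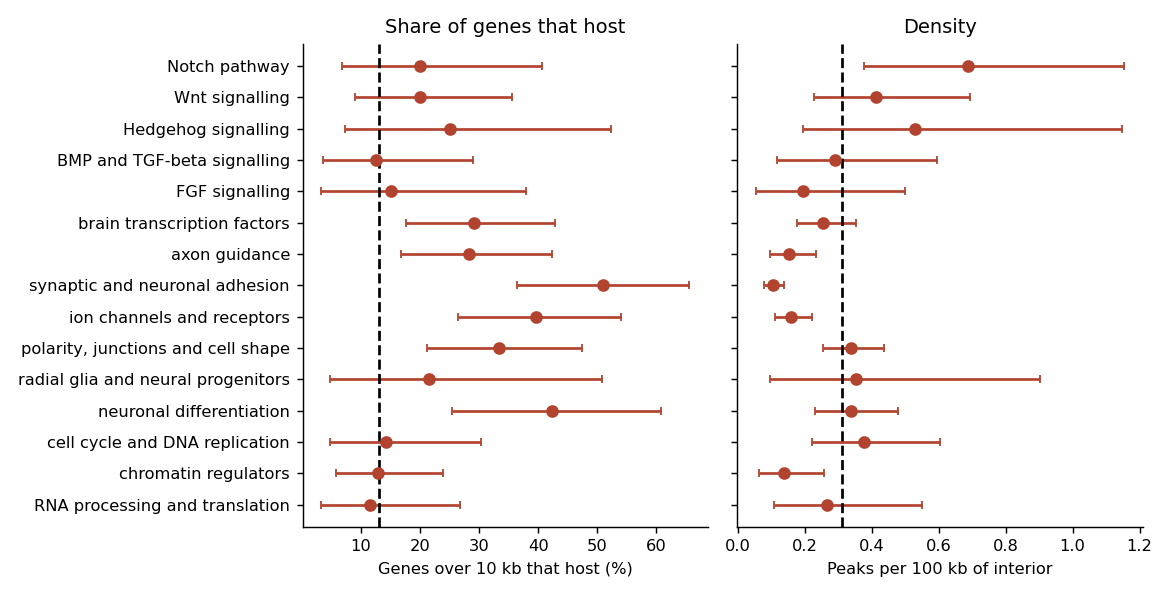
Share of genes over 10 kb that host an interior peak of score under 15 (left) and such peaks per 100 kb of interior (right) for 15 gene lists; bars are 95% exact intervals and dashed lines mark all genes over 10 kb (13% and 0.310). The adhesion list has the largest share and the lowest density.

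Few of the peaks lay at non-coding genes. The midpoint of 184 (6.93%, 6.00 to 7.97%) was within 1 kb of an annotated non-coding gene end, against 15.1% (14.2 to 16.1%) of low-scoring peaks between genes, and 145 of the 184 were near a long non-coding RNA gene. How densely non-coding gene ends lie inside and between coding genes was not compared, so these shares have no background beside them. In 10 cases the peak overlapped a microRNA gene, among them Mir128-2 in Arpp21 (score 7.18), Mir199b in Dnm1 (6.86) and Mir1192 in Klf9 (6.56). On the X chromosome 35 of 565 genes over 10 kb were hosts (6.19%, 4.35 to 8.51%), against 13.4% (12.8 to 14.0%) on autosomes, with 0.134 (0.100 to 0.176) and 0.318 (0.306 to 0.330) peaks per 100 kb. Median lengths on X and autosomes were 33.8 and 33.4 kb. X held 1.85% of the low- and middle-scoring interior peaks (1.37 to 2.43%), beside 2.29% of all 21546 peaks used. Whether the lower values on X are particular to the interior peaks was not tested.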

How the data were processed

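The study sequenced an H2AZ ChIP library and an input library of mouse neural progenitor cells, 1 each. One deposited file was used, a list of 21592 peaks without a header. Peak numbers run to 32564 at the last peak of Y, more than the peaks listed. Column 5 is the deposited score of each peak, given by the authors without a unit; depth is unknown. Peak names carry the name MACS, per the deposited file. The submitters' processing notes name CASAVA 1.4, FastQC, Bowtie2 2 and mm9; caller settings and input use were not given in the sources used here. Positions were read as GRCm38: 51.6% of peaks lay within 1 kb of a coding gene end, against 12.0 and 12.2% after shifts of 10 kb. The 46 peaks numbered after the last peak of Y were dropped.

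Gene spans came from RefSeq's GRCm38.p6 table and strand and starts from its promoter table. Only the outermost gene ends set the 5 kb limit. All values describe 1 list; shares have Clopper-Pearson and densities Poisson intervals, and no test was made. Named are the 20 hosts with the most peaks, the 10 densest with at least 3, of each list up to 4 hosts with the most peaks and the first 3 long genes in alphabetical order without, the 5 widest and 5 highest peaks, the peaks nearest the limit and the closest pairs. Some items that meet these rules are not reported here. Genes with symbols of the Gm, Rik, Olfr and Vmn kinds are counted but not named. Other genes named were chosen after their values were seen. The members and lists were chosen with earlier results of these data known. Alternatives were distance and score limits, boundary windows, merging, whole peaks and all annotated ends; starts, CG content and the 5′ end alone for other genes were added after seeing the data. Python 3.11.15, numpy 2.4.6, pandas 2.3.3, scipy 1.17.1 and matplotlib 3.10.9 were used. The assignment of peaks to hosts and boundaries was tested on simulated data.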

Additional observations from a re-analysis of the deposited data

Results flagged for a closer look

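Outside every comparison stood 46 deposited peaks numbered out of chromosome order, past those of Y, with a median score of 9.46. Read at their listed positions, 3 of them would have met the rule for low- and middle-scoring interior peaks. Where they belong was not tested.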

How the results depend on the processing

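Over the alternatives tried, the number of peaks, of hosts and of hosts with 2 or more peaks stayed within 1.5 times the reported value. So did the 168 hosts found in any list, each counted once (146 to 194). The share of genes over 10 kb that were hosts, their median length in bp and the density per 100 kb moved beyond their counting intervals with the limits. With a distance limit of 3 kb the median length was 75340.5 and the density 0.327, and with 10 kb, where only genes over 20 kb can be hosts, the share was 13.7%, the median length 118646 and the density 0.287. With scores under the median of all peaks the values were 11.6%, 96859 and 0.272, with scores under 20 the share was 14.4% and the density 0.349, and with no score limit the values were 15.6%, 82477 and 0.377. Over 5 kb from the end of every annotated gene they were 11.6%, 96185 and 0.285, with 0% of peaks near a non-coding end by construction. That share was 7.99% with no score limit and 9.57% within 2 kb. The share of hosts with a boundary peak was 61.5% with no score limit. For hosts and other long genes it was 67.4 and 66.7% with windows of 2 kb and 74.6 and 69.8% with 5 kb, where the order turned; a window of 5 kb reaches the edges of some interior peaks themselves. With boundary peaks at or above the median score it was 49.6 and 53.7%, and for other genes 63.5% with windows of 500 bp and 63.3% at the 5′ end alone. Keeping the out-of-order peaks, merging peaks within 1 kb and asking for the whole peak inside 1 gene moved none of these results. With a limit of 10 kb the hosts of the Hedgehog, astrocyte and oligodendrocyte, and mesenchyme lists fell to 2, 0 and 1. No paired analysis was possible because the series has 1 library per group.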

Other observations

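Marker genes of cell types other than neural progenitors also held low- or middle-scoring interior peaks, beside the 13% of all genes over 10 kb that do. These lists are short and their intervals wide. All genes over 10 kb had 0.310 peaks per 100 kb. Astrocyte and oligodendrocyte genes had 1.69 (0.462 to 4.34), endothelial genes 0.719 (0.310 to 1.42), microglia and white blood cell genes 0.463 (0.170 to 1.01) and mesenchyme and pericyte genes 0.600 (0.0726 to 2.17). Density is higher in short genes, at 0.576 for 10 to 25 kb, and the median astrocyte and oligodendrocyte gene spans 21589 bp. Of all genes of 10 to 25 kb 3.51% were hosts. The median endothelial and microglia genes lie at 50 to 100 kb, where 16.7% of all genes were hosts, at 0.374 per 100 kb. The median mesenchyme and pericyte gene lies at 25 to 50 kb, where 10.1% of all genes were hosts, at 0.459 per 100 kb. Of 9 astrocyte and oligodendrocyte genes over 10 kb 4 were hosts (44.4%, 13.7 to 78.8%): the growth factor receptor gene Pdgfra (14.62), the myelin gene Mag (10.14), Cspg4 (9.84) and the water channel gene Aqp4 (5.97), with none in Aldh1l1, Cnp and Mbp. Only Cspg4 of these hosts had a boundary peak (5.02). With a distance limit of 10 kb in place of 5 kb none of this list was a host. Of 13 endothelial genes 5 were hosts (38.5%, 13.9 to 68.4%), led by Vwf with 3 (6.86, 6.11 and 6.86), Pecam1 with 2 (7.76 and 8.65), Eng (10.49) and Emcn (7.16), and 2 of the 5 had a boundary peak. Cdh5, Erg and Ets1 (1 above the score limit, 16.41) held none. Of 11 genes of microglia and white blood cells 5 were hosts (45.5%, 16.7 to 76.6%), led by Runx1 (6.26 and 9.66), Ptprc (11.93), Fyb (10.44) and Spi1 (6.86), and 1 of the 5 had a boundary peak, Spi1 (14.91). Csf1r, Dock2 and Ikzf1 held none.

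Of 10 mesenchyme and pericyte genes 2 were hosts (1 with the limit of 10 kb), Cspg4 and Tbx15 (7.46), and Col1a1, Col1a2 and Col3a1 were not. Of 19 genes listed as terminal genes of other tissues 4 were hosts (21.1%, 6.05 to 45.6%), at 0.198 peaks per 100 kb (0.0906 to 0.376). The median gene of this list lies at 100 to 200 kb, where 27.5% of all genes were hosts, at 0.335 per 100 kb. Expression of the listed genes in brain was not checked. The 4 hosts were the kidney gene Pkhd1 with 4 (9.25, 6.56, 12.53 and 11.04), the muscle calcium channel gene Ryr1 with 2 (13.72 and 10.74), the dystrophin gene Dmd with 2 (5.67 and 6.86, the latter over a listed interior start) and Nphs1 (6.26). Abcb11, Acaca (1 above the score limit, 28.64) and Alb held none. Whether other cell types in the tissue contributed to these peaks was not tested.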
